A study of Mus musculus with 32 samples.

Results

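Mouse liver 72 hours after removal of 2/3 of the organ was compared with liver 24 and 30 hours after the same operation. The 72 h group held 2 arrays and the earlier groups 2 arrays each, so 6 of the 32 arrays of the series entered the comparison, chosen by the time that the source name of each sample gives. The whole series also covers unoperated liver, the other hours after the operation and embryonic liver. All 6 samples came from female CD-1 mice aged 10 weeks, in which the 3 anterior lobes and the gallbladder had been removed under ketamine and xylazine. The mice received buprenorphine for 48 hours or until they were killed, so the 24 and 30 h livers were taken within that period and the 72 h livers after its end. Each array measured total RNA of a separate pool of liver tissue from at least 3 different animals. P-values therefore measure the spread between pools, and 2 arrays a group limit the precision. No group operated on without loss of liver was analysed here, and time after the operation is the difference that the labels give between the groups.

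In the resting adult liver hepatocytes stand outside the cell cycle. After part of the liver is removed they re-enter it, pass through the growth phase that cyclin D and its kinases govern, copy their DNA and then divide, and the other cells of the liver, such as Kupffer cells, endothelium and stellate cells, also multiply during regrowth. Proteins that load and fire replication origins act before and during DNA synthesis, and proteins of the spindle, the kinetochore and the cleavage furrow act in the divisions that follow. The comparison sets a late time against 2 earlier ones and so asks which of these genes differ between them. The unoperated liver and the uneven pair of arrays at 48 h are not part of the difference, but they enter the spread used in the tests.

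The values are probe set intensities on a linear scale, and those below 0 were set to 0 for the analysis. A log2 change is the difference between group means of log2(intensity + 16), with 24 and 30 h weighted equally, and understates the change of weakly measured genes. A value after ± is the standard error of a log2 change. Genes were called at a Benjamini-Hochberg adjusted p under 0.05 in limma, over 18193 genes, with the spread of each gene taken from all 32 arrays. "Raised" and "lowered" are used of called genes. The liver identity of the samples was plain on all 6 arrays. Alb, the main plasma protein of hepatocytes, read 9650.1 and 9078 at 72 h, against 8504 and 9054 at 24 h and 8965 and 9232 at 30 h. Cyp2e1, a cytochrome P450 of mature hepatocytes, read 8214 and 8085 at 72 h, against 8017 and 7620.3 at 24 h and 7702 and 8208 at 30 h.

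Both 72 h arrays stood slightly above the 4 earlier arrays in overall signal. Their medians were 78.6 and 76.3, against 74.5 and 74.4 at 24 h and 74.4 and 75.8 at 30 h. The share of probe sets below 0 was 2.54% and 2.58% at 72 h, against 2.89% and 3.07% at 24 h and 2.98% and 2.82% at 30 h. The 75th percentiles were 179.7 and 176.6 at 72 h, against 162.8 and 171.6 at 24 h and 164.0 and 170.6 at 30 h. The 3 prime over 5 prime log2 ratio of Actb, which rises with RNA breakdown, was 1.03 and 0.59 at 72 h, against 0.77 and 0.94 at 24 h and 1.20 and 0.84 at 30 h, so its ranges overlapped. The 24 h arrays differed strongly from each other in single genes, chosen here after their values were seen. Creld2, a resident protein of the endoplasmic reticulum, read 490.2 on the first 24 h array and 3994 on the second, and Egr1, an early growth response factor, read 1804 and 359.7. Genes of hepatocytes were among those lower on the second, such as Slc22a26 with 314 and 68.4, Cyp2c54 with 1881 and 598 and Cyp4f14 with 752 and 235. Other liver genes were higher on it, such as Nnmt with 621 and 2596 and the cytochrome P450 gene Cyp4a12a with 16.1 and 79.0. The log2 values of the arrays of 1 group differed with an SD over genes of 0.358 at 72 h, against 0.390 at 24 h and 0.302 at 30 h, and of 0.748 at 48 h.

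At 72 h 519 genes were raised (2.85% of those tested) and 21 were lowered (0.115%), 2.97% in all. Of the raised genes 230 were at least 2-fold higher and 59 at least 4-fold higher, and 8 of the lowered genes were at least 2-fold lower. Both 72 h arrays lay above all 4 earlier arrays in 518 of the 519 raised genes and below all 4 in 19 of the 21 lowered genes. Over all genes tested the arrays separated in this way in 17.9% upward and 6.81% downward, and the median log2 change was 0.05. Without the first 72 h array 217 genes were raised and 29 lowered, without the second 253 and 13, and without the first 30 h array 351 and 6. Without the second 24 h array 455 were raised and 9 lowered, and without the second 30 h array 429 and 11. Of the genes raised without the first 72 h array, 216 were among the 519, and of those raised without the second 241 were. With the spread taken from all groups except 48 h, 679 genes were raised and 42 lowered. After scaling the arrays to a common 75th percentile 365 genes were raised and 28 lowered. With quantile normalisation 383 were raised and 43 lowered, and the median log2 change of all genes was -0.02. The part of overall signal in the rises was not tested beyond these settings.

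**Figure D1:**
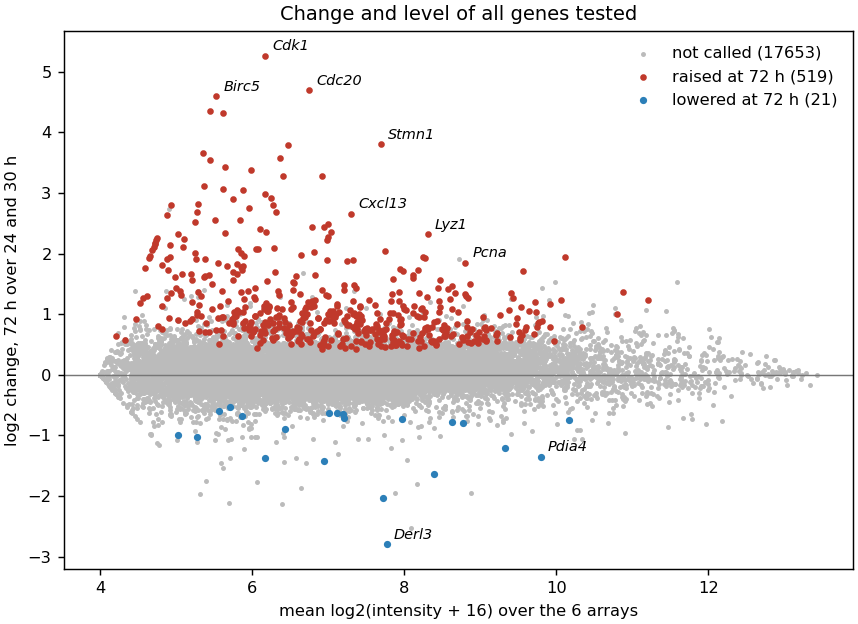
Each point is a gene, with the mean of log2(intensity + 16) over the 6 arrays on the x axis and the log2 change of 72 h over 24 and 30 h on the y axis. The 519 raised genes (red) reach above 5, with Cdk1 at 5.26, and the 21 lowered genes (blue) end at -2.80 with Derl3.

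The 15 largest rises, counted among genes whose higher group mean was above the median of all values, were Cdk1, Cdc20, Birc5, Ccnb2, Ect2, Stmn1, Ube2c, Esco2, Cdca3, Smc2, Shcbp1, Top2a, Rrm2, Ccna2 and Nuf2, with log2 changes from 5.26 down to 3.12. All 15 were called under each of the 20 alternative settings of the processing. Of the 59 genes raised at least 4-fold, 47 belong to 15 lists of replication, mitosis and their control, which together hold 341 measured genes. In these lists 150 genes were raised (44.0%, against 2.85% of all genes), 0 were lowered, 300 had a positive log2 change and 218 separated from all 4 earlier arrays. Their median log2 change was 0.52. Leaving out 1 array at a time gave 103 to 141 raised members, and fitting the 6 arrays on their own gave 98.

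Macrophage markers moved with this comparison too. Of 20 measured markers of macrophages and Kupffer cells 7 were raised, against 2.85% of all genes. The summed intensity of the 20 was 12209 and 11378 at 72 h, against 6458 to 8146 on the 4 earlier arrays. The part of these cells in the rise of division genes was not tested. In bulk tissue fewer cells of a type and less RNA per cell, or more of either, cannot be told apart.

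Cdk1, the kinase that drives entry into mitosis, had intensities of 642 and 1003 on the 72 h arrays, against -18.7, -34.9, 10.96 and 13.9 on the 24 and 30 h arrays. The log2 change was 5.26 ± 0.57 (adjusted p = 6.18e-06), and the groups did not overlap. Its partner Ccnb2, a B-type cyclin, read 261 and 370.0 on the 72 h arrays, against -18.9, -12.9, -23.3 and -9.41 on the 24 and 30 h arrays (log2 4.35 ± 0.46, adjusted p = 4.39e-06). All 4 earlier values of Ccnb2 were below 0, so the size of its log2 change depends on the constant 16. Ccna2, the cyclin of S phase and early mitosis, read 340.3 and 400.3 at 72 h, against 16.9 and 15.6 at 24 h and 34.1 and 32.2 at 30 h (log2 3.27 ± 0.43). It separated at both earlier times, and the 30 h arrays lay above the 24 h arrays.

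Ccnd1 and Ccne1 did not pass the test. Ccnd1, the D-type cyclin of the growth phase, read 641 and 572 at 72 h, against 469 and 488 at 24 h and 647 and 586 at 30 h, and its log2 change was 0.15 ± 0.25 (adjusted p = 0.951). Its 72 h and 30 h arrays overlapped. Ccne1, which acts before S phase, was at 806 and 827 at 72 h, against 843 and 798 at 24 h and 821 and 783 at 30 h, with a log2 change of 0.01 ± 0.19. A further probe set of Ccne1 gave 0.84. In the list of cyclins, Cdks and their regulators 6 of 20 members were raised (median 0.33), namely Cdk1, Ccnb2, Ccna2, Ccnf (1.91), Ccne2 (1.63) and Cks2 (1.34), of which Ccne2 and Cks2 were named after their values were seen. The other 14 members were not called.

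**Figure D2:**
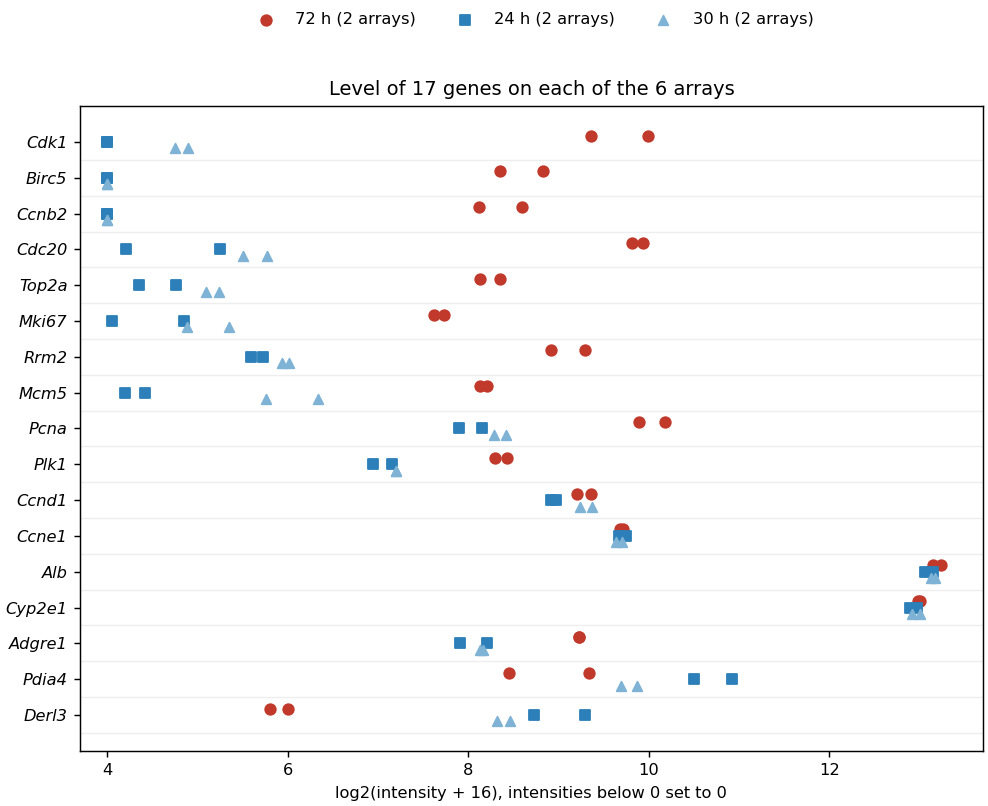
Points are arrays: 72 h (red circles), 24 h (dark blue squares) and 30 h (light blue triangles), on log2(intensity + 16), where 4 stands for an intensity of 0 or below. The 72 h points lie right of all others from Cdk1 to Plk1 and for Adgre1, overlap them for Ccnd1, Ccne1, Alb and Cyp2e1, and lie left of them for Pdia4 and Derl3.

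Mitotic kinases and the chromosomal passenger complex formed the list with the largest share of raised members, 17 of 20, and the largest median (2.04). Birc5, the survivin subunit of the passenger complex, read 312 and 438 on the 72 h arrays, against -17.3, -9.38, -1.70 and -11.8 on the 24 and 30 h arrays (log2 4.59 ± 0.40, adjusted p = 6.53e-07). Like Ccnb2, it was below 0 on all 4 earlier arrays. Cdca3, a trigger of mitotic entry, read 348 and 493 at 72 h, against 11.3 and 26.5 at 24 h and 23.1 and 20.9 at 30 h (log2 3.58 ± 0.36). Nek2, a kinase of centrosome separation, read 235 and 299 at 72 h, against 20.7 and 24.3 at 24 h and 27.7 and 25.03 at 30 h (log2 2.80 ± 0.27). In Plk1, the polo kinase that acts from mitotic entry to cytokinesis, the difference was smaller and the level at 24 and 30 h higher. It read 298 and 328 in the 72 h livers, against 127 and 107 in the 24 h livers and 131 and 131 in the 30 h livers, without overlap (log2 1.23 ± 0.14, adjusted p = 7.63e-06). Sgo2a, Melk and Cdca2 were the 3 members not called.

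Of the 33 measured proteins of the centromere and kinetochore, the structure by which chromosomes attach to the spindle, 20 were raised (median 0.73). Nuf2, a subunit of the complex that grips microtubules, read 168 and 148 at 72 h, against 10.5 and -5.66 at 24 h and 7.27 and 0.239 at 30 h (log2 3.12 ± 0.38). Cenpa, the histone variant that marks centromeres, read 246 and 274 at 72 h, against 15.5 and 28.3 at 24 h and 36.9 and 29.4 at 30 h (log2 2.69 ± 0.29). Cenpq read 181 and 217 at 72 h, against 25.9 and 14.4 at 24 h and 25.95 and 42.6 at 30 h (log2 2.35 ± 0.24). In each of these genes both 72 h arrays were above all others. The 24 and 30 h arrays gave a median change of 0.00 between them for the whole list (30 h over 24 h). Members below 0 on all 4 earlier arrays, such as Oip5 and Cenph, were set to 0 and so have a change of 0 here. Cenpa changed by 0.39, Cenpq by 0.47 and Nuf2 by -0.08.

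The spindle checkpoint and the anaphase-promoting complex, the ubiquitin ligase that ends mitosis, gave a mixed picture. Cdc20, which activates the ligase, read 884 and 963 on the 72 h arrays, against 22.1, 2.49, 38.6 and 29.3 on the 24 and 30 h arrays (log2 4.69 ± 0.67, adjusted p = 0.000123). Ube2c, the ubiquitin-conjugating enzyme that serves it, read 398 and 616 at 72 h, against 17.3 and 22.1 at 24 h and 20.4 and 24.8 at 30 h (log2 3.79 ± 0.48). Pttg1, the securin that the ligase destroys, read 676 and 806 at 72 h, against 206 and 141 at 24 h and 198 and 193 at 30 h (log2 1.92 ± 0.19), and Mad2l1, a checkpoint protein that restrains Cdc20, read 355 and 381 at 72 h, against 75.3 and 93.2 at 24 h and 85.5 and 96.0 at 30 h (log2 1.90 ± 0.22). With Espl1, Bub3 and Fbxo5, named after their values were seen, these made 7 raised members of 23 (median 0.37). None of the measured core subunits whose symbols begin with Anapc was called, and neither were Cdc16, Cdc23, Cdc26 and Cdc27.

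Kinesins and spindle proteins had 14 raised members of 28 (median 0.56), which became 9 without the second 72 h array. Stmn1, which destabilizes microtubules, read 1003 and 1392 at 72 h, against 42.6 and 45.9 at 24 h and 127 and 89.7 at 30 h (log2 3.80 ± 0.48, adjusted p = 3.18e-05). Prc1, which bundles microtubules of the central spindle, read 185 and 199.8 at 72 h, against 19.5 and 22.0 at 24 h and 27.1 and 25.5 at 30 h (log2 2.40 ± 0.25). Kif20a, a kinesin of the same structure, read 156 and 164.8 at 72 h, against 21.1 and 29.7 at 24 h and 30.2 and 22.7 at 30 h (log2 2.08 ± 0.23). In cytokinesis 6 of 17 members were raised (median 0.38). Ect2, which activates the GTPase that forms the cleavage furrow, read 357 and 337 at 72 h, against -0.391 and -14.7 at 24 h and 10.1 and -4.79 at 30 h (log2 4.33 ± 0.67), and Anln, a scaffold of the furrow, read 92.7 and 97.5 at 72 h, against -7.60 and -2.10 at 24 h and -14.1 and -4.19 at 30 h (log2 2.80 ± 0.30). Racgap1, which recruits Ect2 to the spindle, read 205 and 226 at 72 h, against 76.3 and 70.9 at 24 h and 68.9 and 69.6 at 30 h (log2 1.40 ± 0.14). Rhoa, the GTPase itself, was not called.

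Proteins that shape chromosomes followed. Of 21 measured members of condensin, cohesin and related proteins 10 were raised (median 0.52). Top2a, the topoisomerase that untangles sister chromatids, read 311 and 264 at 72 h, against 4.42 and 11.1 at 24 h and 21.7 and 18.2 at 30 h (log2 3.38 ± 0.50). Smc2, a core subunit of condensin, read 220.4 and 198 at 72 h, against -3.04 and 1.74 at 24 h and 14.6 and -0.378 at 30 h (log2 3.54 ± 0.43). Mki67, the Ki-67 protein that coats mitotic chromosomes and marks cycling cells, read 196 and 181 at 72 h, against 12.9 and 0.548 at 24 h and 24.7 and 13.4 at 30 h (log2 2.89 ± 0.39, adjusted p = 5.67e-05). The cohesin core subunits divided: Rad21 read 722 and 914 at 72 h, against 265 and 311 at 24 h and 358 and 383 at 30 h (log2 1.27 ± 0.15), and Smc1a and Smc3 were not called. Of 19 measured genes of the chromatin of dividing cells 13 were raised (median 0.68), which became 8 without the first and 7 without the second 72 h array. H2az1, a histone variant made outside the replication-bound histone set, read 638 and 842 at 72 h, against 169.9 and 131 at 24 h and 228 and 197 at 30 h (log2 1.95 ± 0.30). Hmgb2, a DNA-bending protein, read 223 and 232 at 72 h, against 50.7 and 52.7 at 24 h and 66.9 and 79.5 at 30 h (log2 1.65 ± 0.16), and Dek, another chromatin protein, read 593 and 518 at 72 h, against 198 and 217 at 24 h and 222 and 234 at 30 h (log2 1.29 ± 0.15).

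Genes of DNA replication were raised in about the same share as those of the kinetochore. Their largest changes were smaller than those of the leading mitotic genes, but their list medians were not low. The medians of the 2 replication lists, 0.90 and 0.79, lay above that of the kinetochore (0.73). They were within the range of the 5 lists of mitosis and cytokinesis (0.37 to 2.04). Of 29 measured genes of origin licensing and firing 17 were raised (median 0.90). Mcm5, a subunit of the replicative helicase, read 279 and 264 at 72 h, against 2.30 and 5.41 at 24 h and 64.5 and 38.1 at 30 h (log2 2.99 ± 0.40, adjusted p = 5.74e-05). Mcm6, another subunit, read 483 and 594 at 72 h, against 89.0 and 84.0 at 24 h and 182 and 141 at 30 h (log2 2.04 ± 0.26). Dbf4, the activating subunit of the kinase that fires origins, read 132 and 129 at 72 h, against 8.06 and 19.97 at 24 h and 11.6 and 14.2 at 30 h (log2 2.33 ± 0.22). In Mcm5 and Mcm6 both 30 h arrays lay above both 24 h arrays, and the median change of 30 h over 24 h for the list was 0.22, but the difference between these times was not called in any member of the list. The subunits Mcm2, Mcm3, Mcm4 and Mcm7 were raised as well, so that all 6 helicase subunits were called. The origin recognition subunits Orc1 to Orc5 were not called, and Orc6 was raised (0.90). Mcm3, Mcm4, Mcm7 and Orc6 were named after their values were seen.

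Of 25 measured fork proteins and polymerase subunits 15 were raised (median 0.79), which became 9 without the first and 8 without the second 72 h array. Pcna, the sliding clamp of the polymerases, read 935 and 1145 at 72 h, against 222 and 269 at 24 h and 325 and 297 at 30 h (log2 1.85 ± 0.17, adjusted p = 1.05e-06). Rpa1, which covers single-stranded DNA, read 528 and 538 at 72 h, against 179.9 and 173 at 24 h and 226 and 224 at 30 h (log2 1.35 ± 0.20), and Prim1, the primase subunit that starts new strands, read 213 and 216 at 72 h, against 62.0 and 55.7 at 24 h and 101 and 95.4 at 30 h (log2 1.32 ± 0.17). In all of these the 72 h arrays were above every earlier array. In the supply of nucleotides 6 of 21 members were raised (median 0.27), and they were those of deoxynucleotides. Rrm2, the regulated subunit of ribonucleotide reductase, read 466 and 611 at 72 h, against 32.3 and 37.0 at 24 h and 48.6 and 45.4 at 30 h (log2 3.28 ± 0.46), and Dck, which salvages deoxynucleosides, read 204 and 174 at 72 h, against 27.2 and 17.5 at 24 h and 45.2 and 44.1 at 30 h (log2 2.09 ± 0.26). Rrm1, Tk1, Dut and Dtymk completed the 6 (Dut and Dtymk named after their values were seen). The enzymes of purine synthesis Ppat, Gart, Paics and Atic were not called.

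DNA repair, the centrosome and the transcription factors of the cycle gave weaker results. In DNA repair and damage signalling 7 of 29 members were raised (median 0.18), but 1 without the first and 2 without the second 72 h array. Brca1, which acts in repair by recombination, read 81.6 and 69.8 at 72 h, against 14.5 and 27.1 at 24 h and 12.2 and 25.7 at 30 h (log2 1.38 ± 0.21). It lost its call when the 6 arrays were fitted on their own. Of 16 centriole and centrosome genes 3 were raised (median 0.22), among them Stil, which centriole duplication needs, at 41.9 and 49.5 at 72 h, against 10.6 and 14.2 at 24 h and 2.26 and 9.64 at 30 h (log2 1.31 ± 0.19).

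In the list of E2F, Myb, Foxm1 and DREAM factors 7 of 21 were raised (median 0.31), but 2 without the first and 1 without the second 72 h array, and 4 without either 30 h array. Lin54, the subunit through which the MuvB core of the DREAM and Myb complexes binds DNA, kept its call in all 20 settings. It read 173 and 173 at 72 h, against 41.9 and 68.6 at 24 h and 53.1 and 41.5 at 30 h (log2 1.51 ± 0.21, adjusted p = 9.65e-05). E2f1, an activator of S phase genes, was not called (log2 0.31 ± 0.16). Foxm1, an activator of mitotic genes, read 103 and 91.4 at 72 h, against 82.5 and 81.0 at 24 h and 75.8 and 75.1 at 30 h. Its 72 h arrays lay above the other 4, and the log2 change of 0.26 ± 0.12 was not called. Further probe sets of Foxm1 gave 0.14, 0.13 and 0.85. Of the inhibitors of cell cycle kinases and growth arrest genes 2 of 19 were raised (median 0.38), which became 1 without the first 72 h or the first 30 h array and 0 without the second 72 h array. Cdkn1a, the p21 inhibitor, read 306 and 391.8 at 72 h, against 203 and 604 at 24 h and 119 and 79.9 at 30 h and was not called (log2 0.82 ± 0.27, adjusted p = 0.127). Its 24 h arrays differed from each other and enclosed the 72 h values. Against 24 h alone the log2 change of Cdkn1a was -0.02 ± 0.31. Against 30 h alone it was 1.67 ± 0.31 and called (limma adjusted p = 0.00374).

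**Figure D3:**
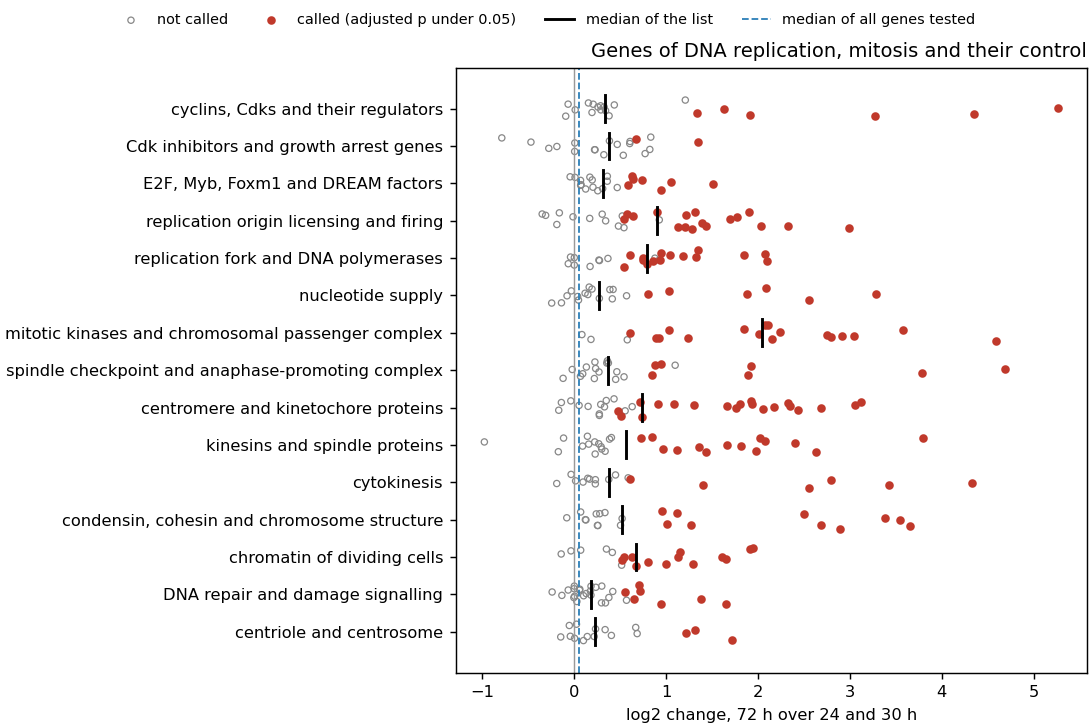
Each point is a measured member of 1 of the 15 lists, placed by its log2 change of 72 h over 24 and 30 h. Filled red points were called, black bars are list medians, and the dashed line is the median of all genes (0.05). The median lies right of the dashed line in every list and furthest right for mitotic kinases and the chromosomal passenger complex (2.04).

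In many of these genes the probe sets disagreed. The value given is that of the probe set with the highest mean over all arrays of the series, those of embryonic liver among them. It is therefore not always the brightest on the arrays compared here. For Cdc20, Mcm5, Cdca3 and Rad21 a further probe set that changed less was brighter on these. In Cdc20 its mean was 436, against 323 for the probe set used, and in Mcm5 188, against 109. The same held for Top2a, Cenpa, Nek2, Anln, Tacc3, Dck and Rrm1, among further genes. For others, such as Mcm6, Rrm2 and Smc2, the probe set used was also the brightest on these arrays. Among mitotic genes the further probe sets gave log2 changes of 3.52 and -0.38 for Cdc20, 0.07 and 0.42 for Top2a, -0.13 and 0.12 for Cdca3 and -0.08 and 0.55 for Cenpa. Nek2 had 0.88, -0.11 and -0.23, Anln 0.02, Racgap1 0.85 and -0.20, Tacc3 2.01 and -0.06, Pttg1 0.52 and 2.16, and Rad21 0.15 and 1.28. Those of Smc2 gave 0.60, 0.00, 0.80 and 0.27. Among genes of replication, chromatin and control Mcm5 had 0.87 and 0.12, Mcm6 2.21 and -0.06, Dbf4 0.13, Prim1 -0.01, Dck 0.13 and 1.69 and Rrm1 1.44 and 0.08. Brca1 had 0.96, 0.18 and 0.71, Dek 0.39, Hmgb2 2.53 and 0.64, Lin54 -0.06 and E2f1 0.64 and 0.06. For Ccna2 (3.34), Esco2 (3.36), Rrm2 (2.67 and 3.95), Prc1 (2.90) and H2az1 (1.84) the further probe sets rose likewise. With the mean of all probe sets of a gene, 149 members of the 15 lists were raised and 1 was lowered.

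Promoters of division genes are known to share short sequence elements: the cell cycle homology region (letters TTTGAA), which MuvB binds through Lin54, the CCAAT box, bound by NF-Y, and the E2F site. A window of 250 bases before to 50 bases after the gene start was available for 14452 of the 18193 genes from RefSeq (GRCm38.p6), and both strands were searched for TTTGAA, for CCAAT and, as E2F letters, for TTTGGCGC, for TTTCCCGC, for TTTCGCGC and for TTTGCCGC. The promoters of 7 genes are printed as examples of the letters, and these genes are not simply those with the largest changes. Plk1 and Mcm5 were not among the largest rises listed above, and some genes that were, such as Ect2 and Stmn1, are not printed. The promoters printed are those of 5 mitotic genes, of Mcm5 as a replication gene and of Derl3, the gene that fell most. The found letters are in capitals, and ATTGG is CCAAT read on the other strand. In Derl3 the capitals mark another element, described with the values of that gene. The windows lie at chr10:69352863-69353162 (minus strand) for Cdk1, chr9:70421505-70421804 (minus) for Ccnb2, chr4:118437294-118437593 (minus) for Cdc20, chr7:122159185-122159484 (plus) for Plk1, chr11:117848987-117849286 (plus) for Birc5, chr8:75109259-75109558 (plus) for Mcm5 and chr10:75893148-75893447 (plus) for Derl3.
Cdk1: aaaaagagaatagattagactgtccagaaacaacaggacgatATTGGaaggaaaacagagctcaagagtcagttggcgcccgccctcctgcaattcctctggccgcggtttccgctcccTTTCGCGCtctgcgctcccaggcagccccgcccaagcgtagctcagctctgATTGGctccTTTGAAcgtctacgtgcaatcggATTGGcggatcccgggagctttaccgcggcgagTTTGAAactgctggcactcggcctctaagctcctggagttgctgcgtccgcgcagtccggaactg
Ccnb2: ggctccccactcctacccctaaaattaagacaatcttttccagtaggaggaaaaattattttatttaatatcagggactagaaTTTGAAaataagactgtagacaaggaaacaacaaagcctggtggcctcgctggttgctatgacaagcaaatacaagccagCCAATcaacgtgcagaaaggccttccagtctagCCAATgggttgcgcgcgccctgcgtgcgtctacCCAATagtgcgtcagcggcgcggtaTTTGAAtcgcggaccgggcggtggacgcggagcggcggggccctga
Cdc20: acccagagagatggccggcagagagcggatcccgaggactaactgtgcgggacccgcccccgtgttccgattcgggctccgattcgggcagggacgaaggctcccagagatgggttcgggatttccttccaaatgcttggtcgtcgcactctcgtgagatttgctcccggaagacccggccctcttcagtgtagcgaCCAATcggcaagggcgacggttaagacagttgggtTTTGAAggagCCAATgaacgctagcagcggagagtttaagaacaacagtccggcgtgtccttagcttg
Plk1: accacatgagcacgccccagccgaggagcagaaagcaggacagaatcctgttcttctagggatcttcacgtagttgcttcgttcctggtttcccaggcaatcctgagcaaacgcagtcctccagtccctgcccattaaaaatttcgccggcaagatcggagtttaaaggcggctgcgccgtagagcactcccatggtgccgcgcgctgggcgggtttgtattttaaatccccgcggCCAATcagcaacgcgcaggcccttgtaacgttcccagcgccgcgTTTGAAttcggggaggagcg
Birc5: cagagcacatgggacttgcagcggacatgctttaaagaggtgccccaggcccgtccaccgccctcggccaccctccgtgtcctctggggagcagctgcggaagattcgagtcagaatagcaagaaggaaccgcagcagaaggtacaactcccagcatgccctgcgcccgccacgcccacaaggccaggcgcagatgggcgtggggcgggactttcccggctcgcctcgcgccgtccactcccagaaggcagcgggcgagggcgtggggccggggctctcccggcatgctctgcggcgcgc
Mcm5: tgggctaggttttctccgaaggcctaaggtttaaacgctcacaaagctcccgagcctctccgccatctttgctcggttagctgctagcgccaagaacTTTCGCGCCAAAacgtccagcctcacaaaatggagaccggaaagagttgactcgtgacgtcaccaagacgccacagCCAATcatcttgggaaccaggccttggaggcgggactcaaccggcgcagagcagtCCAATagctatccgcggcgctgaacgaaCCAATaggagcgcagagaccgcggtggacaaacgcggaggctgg
Derl3: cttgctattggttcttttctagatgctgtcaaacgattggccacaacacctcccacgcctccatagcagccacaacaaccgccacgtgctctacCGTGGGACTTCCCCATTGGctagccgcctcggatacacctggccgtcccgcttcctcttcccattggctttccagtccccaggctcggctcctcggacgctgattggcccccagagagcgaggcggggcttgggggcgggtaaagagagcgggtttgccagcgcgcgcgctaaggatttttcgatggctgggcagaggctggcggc

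In Cdk1 TTTGAA began 71 and 15 bases before the start and ATTGG at 208, 80 and 48 bases before it, with TTTCGCGC at 131 bases before it. In Ccnb2 CCAAT began 87, 54 and 21 bases before the start, and TTTGAA 167 bases before it and at base 5 after it. Cdc20 had TTTGAA at 18 bases before the start between 2 CCAAT at 53 and 8 bases before it. Plk1 had TTTGAA at base 31 after the start and CCAAT 14 bases before it. None of the searched letters occurred in the Birc5 window, which says only that they are not in these bases. Mcm5 had no TTTGAA, 3 CCAAT and, from 153 bases before the start, TTTCGCGC and GCGCCAAA, its E2F letters on each strand, which overlap.

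Over the promoters available, TTTGAA occurred in 59.3% of raised genes of 5 lists of mitosis and cytokinesis (32 of 54), in 17.4% of raised genes of the 2 replication lists (4 of 23) and in 13.3% of all genes tested. The E2F letters showed the opposite order, with 3.7% of the raised mitotic genes (2 of 54), 39.1% of the raised replication genes (9 of 23) and 3.38% of all genes. CCAAT was frequent in both, with 68.5% of the raised mitotic and 69.6% of the raised replication genes, against 38.2% of all genes. TTTGAA and CCAAT occurred together in 48.1% of the raised mitotic genes, 42.6% of the 47 promoters of genes raised at least 4-fold and 5.37% of all genes. These shares are descriptions of letters in fixed windows and were not tested.

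The 6 arrays can be placed in the adult course. Cdk1 read 21.0 and -19.6 in unoperated liver, and no array between 1 and 30 h exceeded 74.4. At 48 h it read 52.8 and 316, at 72 h 642 and 1003, and in embryonic liver 1705 to 2117 over 12 arrays. Mcm5 read 66.3 and 31.2 in unoperated liver, and the 18 h livers had 2.47 and 15.7. The 24 h livers had 2.30 and 5.41 and the 30 h livers 64.5 and 38.1. The 48 h arrays gave 98.5 and 194, those of 72 h gave 279 and 264, and the embryo 1526 to 2424. Pcna read 279 and 212 in unoperated liver, and the 48 h livers had 361 and 353. At 72 h it read 935 and 1145, and the embryo had 3597 to 6074. In these 3 genes both 72 h arrays lay above every other adult array and below every embryonic array.

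**Figure D4:**
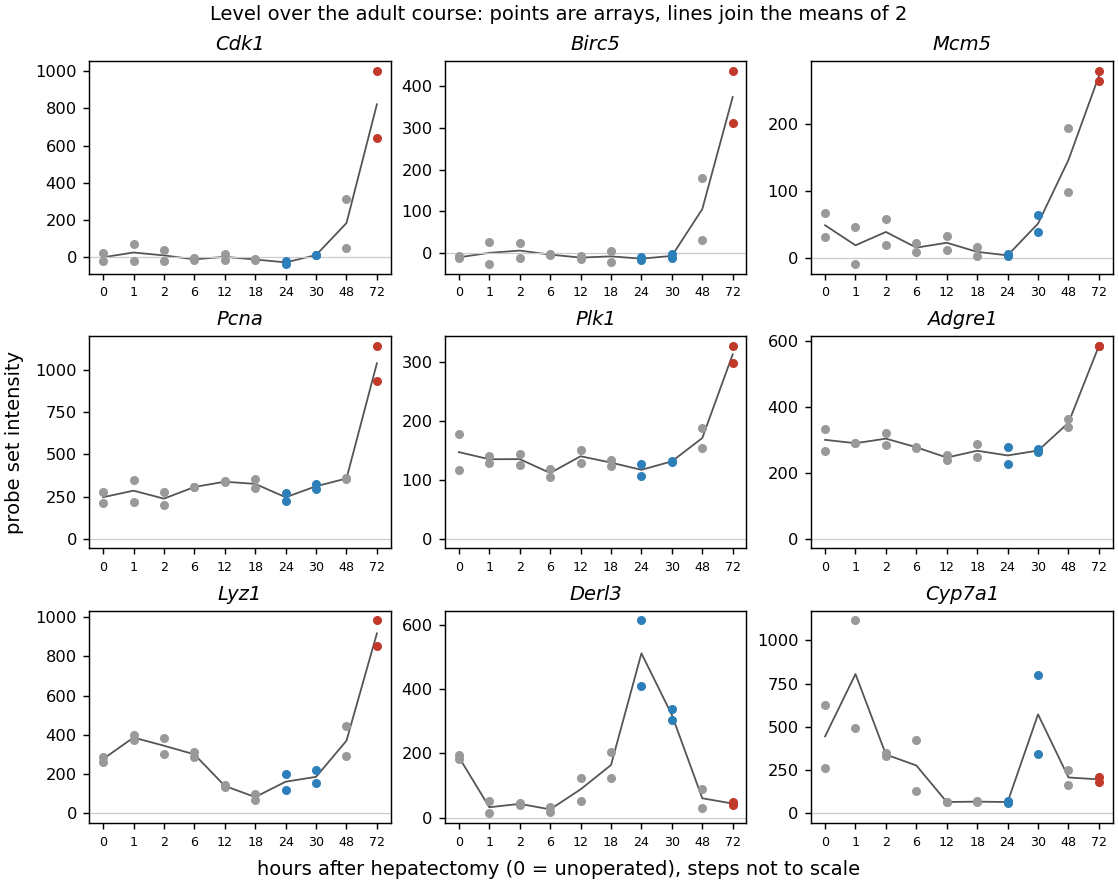
Intensity of 9 genes at each adult time, with hours on an axis that is not to scale. Points are arrays (red 72 h, blue 24 and 30 h, grey other times) and lines join the means of 2 arrays. Cdk1, Birc5, Mcm5, Pcna, Plk1, Adgre1 and Lyz1 are highest at 72 h, Derl3 peaks at 24 h with 408 and 613, and Cyp7a1 differs between 24 and 30 h.

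Outside the cell cycle 7 of 20 measured markers of macrophages, the Kupffer cells among them, were raised (median 0.53): Lyz1, Marco, Timd4, Mpeg1, Lyz2, Adgre1 and Ms4a7, of which Marco, Lyz2 and Ms4a7 were named after their values were seen. Adgre1, the F4/80 antigen of mouse macrophages, read 582 and 585 in the 72 h livers, against 279 and 225 in the 24 h livers and 270.2 and 264 in the 30 h livers (log2 1.13 ± 0.13, adjusted p = 9.63e-06). Timd4, a receptor for dying cells on resident Kupffer cells, read 308 and 249.0 at 72 h, against 97.2 and 60.9 at 24 h and 101 and 101 at 30 h (log2 1.49 ± 0.19), and Mpeg1, a pore-forming protein of macrophages, read 712 and 719 at 72 h, against 226 and 235 at 24 h and 298 and 283 at 30 h (log2 1.41 ± 0.19). The 72 h arrays were above all earlier arrays in each.

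Other macrophage markers did not pass the test. The lowest log2 change in the list was -0.64, and 1 member lay below all 4 earlier arrays. At an unadjusted p under 0.05 the whole list had 11 members above and 1 below, against 9.94% and 1.87% of all genes. Clec4f, a lectin of Kupffer cells, read 383 and 355 at 72 h, against 329 and 293 at 24 h and 369 and 389 at 30 h (log2 0.10 ± 0.25), and Csf1r, the receptor for the growth factor of macrophages, read 1545 and 1590.4 at 72 h, against 1548 and 1534 at 24 h and 1333 and 1389 at 30 h (log2 0.11 ± 0.22). Their groups overlapped. Lyz1, a lysozyme, read 983 and 849.5 at 72 h, against 202 and 122 at 24 h and 219.7 and 153 at 30 h (log2 2.32 ± 0.19), but its near-identical relative Lyz2 may share its probes, and without ambiguous probe sets the log2 change of Lyz1 was 0.23 and not called. Cd14, a receptor for bacterial lipopolysaccharide that hepatocytes also make, was the only acute phase gene of 27 that was raised, a share near the 2.85% of all genes, at 529.8 and 548 at 72 h, against 152 and 332 at 24 h and 108 and 85.4 at 30 h (log2 1.75 ± 0.33, adjusted p = 0.00228). It was called in 19 of 20 settings and lost its call when the 6 arrays were fitted on their own.

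Among the 11 measured neutrophil markers S100a8 and S100a9, which form calprotectin and are also made by monocytes, were raised, and 0 without the first 72 h array. The counts here stand against 2.85% of all genes raised. S100a8 read 646 and 512 at 72 h, against 169 and 147 at 24 h and 161 and 225 at 30 h (log2 1.64 ± 0.30). The summed intensity of the neutrophil list was 8326 and 9046 at 72 h and 8175 to 9497 on the earlier arrays. Of 15 markers of blood progenitors and megakaryocytes 3 were raised (1 without the first 72 h array), and their sum was 1618 and 1656 at 72 h, against 972 to 1323 before. Ptprc, the CD45 antigen of all white blood cells, read 287 and 249.7 at 72 h, against 103 and 72.6 at 24 h and 92.7 and 98.6 at 30 h (log2 1.41 ± 0.15, adjusted p = 4.70e-06). A further probe set of Ptprc gave 0.64. Cd48 and Ppbp were the other members raised. Of 18 interferon-induced genes 3 were raised (median 0.38, against 2.85% of all genes raised), and all 18 had a positive log2 change, as had 59.4% of all genes. Igtp, an interferon-inducible GTPase, read 1386 and 1083 at 72 h, against 388 and 478 at 24 h and 575 and 584 at 30 h (log2 1.27 ± 0.20), and Psmb9, a subunit of the immunoproteasome, read 268 and 261 at 72 h, against 147 and 113 at 24 h and 198 and 179 at 30 h (log2 0.70 ± 0.12). The summed macrophage markers given above moved with these genes, and their part in these rises was not tested.

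In limma 0 of 15 lymphocyte markers, 0 of 22 endothelial, 0 of 12 bile duct and 0 of 21 erythroid markers were called. At an unadjusted p under 0.05 the lymphocyte list had 1 member above and 0 below, the endothelial 2 and 1, the bile duct 1 and 0 and the erythroid 1 and 1. Of all genes 9.94% were above and 1.87% below at that p. Summed intensities of the endothelial list were 4425 and 4429 at 72 h, against 4400 to 4712 before. Those of the lymphocyte list were 2475 and 2713, against 2403 to 2658, so that each range overlapped that of the earlier arrays. The erythroid sums were 4203 and 4241, against 4130 to 4488, and the bile duct sums 1502 and 1564, against 1408 to 1645. Markers of neighbouring organs and fat also had 0 of 16 called (0 above and 0 below at an unadjusted p under 0.05), with a sum of 2299 and 2604 at 72 h, against 2766 to 3374 before. Among the lists of cell type markers Adipoq was the 1 gene at or below 0 on all 6 arrays. Of these 5 lists only that of lymphocytes had a 72 h sum above the earlier range, and only that of neighbouring organs and fat had sums below it.

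Stellate cells and other mesenchyme, which make the matrix of the liver, had 4 raised markers of 22 (median 0.22), against 2.85% of all genes. The sum of the list was 7650 and 8059 at 72 h, against 5579 to 6492 before. Vim, the intermediate filament vimentin, also found in macrophages and endothelium, read 943 and 887 at 72 h, against 337 and 238 at 24 h and 375 and 319 at 30 h (log2 1.498 ± 0.15, adjusted p = 3.75e-06). Tagln, an actin-binding protein, read 48.4 and 43.7 at 72 h, against 7.98 and 3.45 at 24 h and 15.9 and 2.58 at 30 h (log2 1.44 ± 0.25). Col1a1 and Col3a1, the fibrillar collagens that are also the 2 raised members of 28 in the matrix list, were raised by 1.14 and 1.04, and a further probe set of Col3a1 gave 0.41. Leaving out the first 72 h array ended the call of Col1a1 and leaving out the second that of Col3a1, each of which left 1 raised matrix gene. Without the first 72 h array 3 stellate markers were raised and 1, Cygb, was lowered. Des, Lrat and Acta2 were not called.

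Of 26 measured tubulins, actins, annexins and related proteins 7 were raised and 1, Tubb2a, was lowered, against 2.85% and 0.115% of all genes. Tubb6, a beta tubulin, read 406 and 532 at 72 h, against 106 and 233 at 24 h and 134 and 127 at 30 h (log2 1.59 ± 0.29), and a further probe set gave -0.25. The list had 4 raised members without the first and 2 without the second 72 h array, and Tubb2a lost its call without each of the 6 arrays other than the second 72 h array. Tubb2a, named after its values were seen, read 668 and 954 at 72 h, against 1946 and 2015 at 24 h and 873 and 966 at 30 h (log2 -0.75 ± 0.20), so that the 72 h and 30 h arrays overlapped. Tmsb10 (1.09), which sequesters actin, turned to -0.04 without ambiguous probe sets, and its other probe sets gave 1.48, 1.26 and 0.44. Actb, the common actin of non-muscle cells, was not called.

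**Figure D5:**
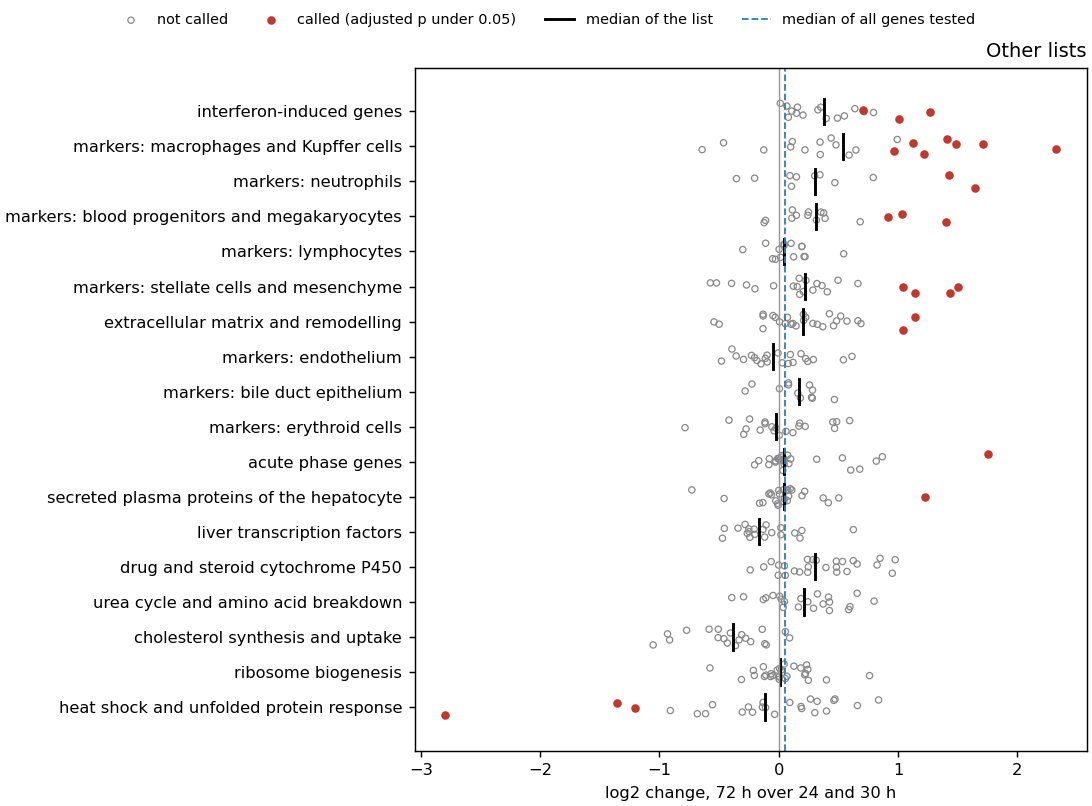
Members of 18 further lists by their log2 change of 72 h over 24 and 30 h, drawn as for the division lists. Called members (red) lie to the right in the lists of macrophages, neutrophils, blood progenitors, stellate cells, matrix and interferon-induced genes and for 1 acute phase gene and 1 plasma protein, and to the left only in heat shock and unfolded protein response, and the list of cholesterol synthesis has its median at -0.38 with 0 called.

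In the functions of the mature hepatocyte few genes were called. In limma 0 of 26 drug and steroid cytochrome P450 genes, 0 of 22 genes of the urea cycle and amino acid breakdown and 0 of 18 of fatty acid oxidation were called, although at an unadjusted p under 0.05 they had 6, 3 and 2 members above and 0, 0 and 1 below, against 9.94% of all genes above and 1.87% below. Their medians were 0.30, 0.21 and 0.02, and that of all genes 0.05. The 24 h arrays differ in some of these genes, as given above for Cyp2c54 and Cyp4f14. Without the first 24 h array 2 P450 genes (Cyp1a2 and Cyp4f14) and 1 of fatty acid oxidation (Acaa1b) were raised, and without the second 30 h array 1 P450 gene (Cyp3a13). Of 20 liver transcription factors 0 were called (1 above and 0 below at an unadjusted p under 0.05), with a median of -0.17, and Hnf4a read 2017 and 2627 at 72 h, against 2141 and 2211 at 24 h and 2291 and 2465 at 30 h. Among 18 genes of the fetal liver 0 were called (0 and 0 unadjusted), and 1 was raised without the second 24 h array. Without that array the raised member was Ly6d. Afp, the fetal plasma protein alpha-fetoprotein, read 15.03 and 10.7 at 72 h, against 6.87 and 8.08 at 24 h and 11.7 and 11.1 at 30 h.

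Of 27 secreted plasma proteins 1 was raised, a share near that of all genes (2.85%). It was C9, the pore-forming component of complement. It read 4028 and 4296 at 72 h, against 1545 and 1143 at 24 h and 2324 and 2379.7 at 30 h (log2 1.23 ± 0.24, adjusted p = 0.00398), and its call was lost without either 72 h array. The serum amyloid Saa1 read 10241 and 10028 at 72 h, against 9817 and 9712 at 24 h and 10037 and 10249 at 30 h and was not called. Lcn2, an iron-trapping protein that the injured liver releases, read 6127 and 7001 at 72 h, against 7507 and 8339 at 24 h and 6993 and 7382 at 30 h and was not called. In the lists of gluconeogenesis and glycogen (15 measured), bile acid synthesis and transport (20) and fatty acid synthesis and lipid droplets (24), 1 member each was raised: the glucose carrier Slc2a2, the steroid reductase Akr1d1 and the fatty acid carrier Cd36. With 1 member each these shares can be read only against 2.85% of all genes. Each was called in 5 of 20 settings, and leaving out either 72 h array or either 30 h array ended each call. For Slc2a2 leaving out either 24 h array did so too, for Akr1d1 leaving out the second and for Cd36 leaving out the first. Akr1d1 itself read 952.2 and 293.4 on the 24 h arrays.

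Genes of cholesterol synthesis and uptake leaned downward without passing the test. In limma 0 of 20 were called, 0 above and 5 below at an unadjusted p under 0.05 (9.94% and 1.87% of all genes), and the median was -0.38. Sqle, the enzyme of the first oxygen-dependent step, read 506 and 534 at 72 h, against 742 and 1181 at 24 h and 1182 and 989.7 at 30 h (log2 -0.93 ± 0.31, adjusted p = 0.132). Both 72 h arrays lay below all 4 earlier arrays in 7 of the 20, against 6.81% of all genes.

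Among the 25 genes of heat shock and the unfolded protein response 3 were lowered and 0 raised, with a median of -0.11. Of all genes 0.115% were lowered and 2.85% raised. The list median was -0.21 against 24 h alone and 0.22 against 30 h alone. Summed intensity of the list was 49518 on the second 24 h array and 27447 on the first. It was 22057 and 25144 at 30 h and 25790 and 30659 at 72 h. Derl3, which helps to pull misfolded proteins out of the endoplasmic reticulum for breakdown, read 39.9 and 48.4 in the 72 h livers, against 408 and 613 in the 24 h livers and 303 and 337 in the 30 h livers. The group means on the log scale differed by -2.80 ± 0.34 (adjusted p = 1.96e-05), the largest fall among called genes, and the call held in all 20 settings. Pdia4, a disulfide isomerase of the same compartment, read 334 and 631 at 72 h, against 1438 and 1929 at 24 h and 812 and 918 at 30 h (log2 -1.35 ± 0.34), and Atf5, a stress-responsive transcription factor, read 305 and 402 at 72 h, against 904 and 938 at 24 h and 796 and 705 at 30 h (log2 -1.21 ± 0.30). No 72 h array overlapped the earlier arrays in these 3 genes. Pdia4 was called in 12 and Atf5 in 14 of 20 settings, and 1 lowered gene was left without the first 72 h, the second 24 h or the first 30 h array. A further probe set of Pdia4 gave -0.11.

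The chaperone Hspa5 (BiP), the central sensor of the same response, was not called. It read 2478 and 3069.6 at 72 h, against 3163 and 7314 at 24 h and 2073 and 2444 at 30 h, with the second 24 h array far above the other 5. In the adult course Derl3 read 184 and 194 in unoperated liver and 33.1 and 19.1 at 6 h. The 12 h livers had 124.6 and 52.0 and the 18 h livers 124 and 204. After the 408 and 613 of 24 h it read 90.6 and 30.7 at 48 h. The 24 and 30 h values were thus the highest of the course, and the 72 h values lay below those of unoperated liver. The Derl3 promoter printed above holds 1 match to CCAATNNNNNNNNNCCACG, the endoplasmic reticulum stress element, on the strand opposite to the gene and from 156 bases before the start. Both strands were searched, any CCAAT inside it overlaps the CCAAT search, and the element was searched for after the fall of Derl3 was seen. It occurred in 1 of the 18 available promoters of lowered genes and in 0.131% of all promoters. Nucb2, the precursor of nesfatin, read 55.3 and 41.6 at 72 h, against 137 and 296 at 24 h and 99.4 and 143 at 30 h (log2 -1.42 ± 0.27) and lost its call without the second 72 h array or with the 6 arrays on their own.

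The other lowered genes fell less firmly. Cd6, a receptor of T cells, read 346 and 238 at 72 h, against 507 and 559.8 at 24 h and 468 and 503 at 30 h (log2 -0.79 ± 0.18) and was called in 17 of 20 settings. Mknk1, a kinase that phosphorylates a translation initiation factor, read 376 and 48.1 at 72 h, against 419.6 and 529 at 24 h and 501 and 460.2 at 30 h (log2 -1.63 ± 0.41). Its further probe sets gave -0.07 and -0.09, and with the mean of all its probe sets the change was -0.60 and not called. Its fall rested on the second 72 h array, without which the log2 change was -0.33 and not called. In Epha3, an ephrin receptor, the same array was low: it read 50.8 and 5.56 at 72 h, against 73.9 and 84.7 at 24 h and 80.5 and 91.5 at 30 h (log2 -1.38 ± 0.32), with -0.56 and no call without that array. The further probe sets of Epha3 gave 0.31, 0.45 and 0.15, and the mean of all gave -0.12, not called.

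The remaining lists gave few calls, in shares to be read against 2.85% of all genes raised. Of 24 immediate early genes Klf10 and Ier3 were raised, and neither without the first or the second 72 h array. The count was 1 without the second 24 h array or without either 30 h array. Myc read 66.8 and 78.9 at 72 h, against 57.2 and 75.3 at 24 h and 80.7 and 87.9 at 30 h and was not called. Of 33 growth factors, receptors and binding proteins Fst, the activin inhibitor follistatin, was raised at 123 and 88.3 at 72 h, against 35.3 and 64.8 at 24 h and 26.2 and 47.4 at 30 h (log2 1.06 ± 0.24), 1 call in 33 being near the share of all genes. A further probe set gave 0.38. Its call ended without the first 72 h, the first 24 h or the first 30 h array. The sex-dependent genes had 1 raised member of 10 higher in females (Slc22a26) and 2 of 15 higher in males (Cyp4a12a and Ugt2b1). Leaving out either 72 h array ended all 3 calls. Leaving out either 24 h array or the first 30 h array ended 1 of the male calls. Without the second 30 h array both male calls ended.

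In limma 0 of 12 Yap and Tead targets, 0 of 28 genes of ribosome biogenesis, 0 of 18 clock genes, 0 of 15 central and 0 of 14 portal zonation genes were called. At an unadjusted p under 0.05 they had 0, 0, 2, 1 and 2 members above and 0, 1, 1, 1 and 0 below, against 9.94% and 1.87% of all genes. Without the first 24 h array 1 gene of central zonation, Cyp1a2, was raised. Their medians ran from -0.06 for Yap and Tead targets to 0.20 for portal zonation.

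Set against each earlier time alone, 72 h had 520 raised and 19 lowered genes over 24 h (2.86% and 0.104%, or 2.96% in all). Over 30 h 292 were raised and 3 lowered (1.61% and 0.0165%, or 1.62% in all). The 2 comparisons share the 72 h arrays. All 519 genes raised against both earlier times together had a positive change against each, 426 were also called against 24 h alone and 281 against 30 h alone. Leaving out an array gave 271 to 477 called genes against 24 h and 142 to 292 against 30 h. The lowest counts against 24 h were 277 and 273 without the first and second 72 h array and 271 without the second 24 h array. Against 30 h the counts were 161 and 143 without the first and second 72 h array and 142 and 153 without the first and second 30 h array.

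For the division genes the change was large against both times. Cdk1 was higher by 5.68 ± 0.66 against 24 h and by 4.85 ± 0.66 against 30 h, and Mcm5 by 3.86 ± 0.46 and 2.12 ± 0.46 (log2). Derl3 was lower at 72 h with log2 changes of -3.11 ± 0.39 against 24 h and -2.48 ± 0.39 against 30 h. Between the earlier times themselves 3 genes were higher and 2 lower at 30 h than at 24 h (0.0165% and 0.011%, or 0.0275% in all), and 723 genes had an unadjusted p under 0.05.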

How the data were processed

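Per the labels, total RNA of pooled livers was hybridised to Affymetrix 430 2.0 arrays. The authors deposited 1 linear intensity per probe set and array, some below 0, and the labels do not name the software or scaling behind them. Of 45101 probe sets 34958 carried 1 gene symbol in GEO's platform annotation, and a gene was represented by its probe set of highest mean over 32 arrays, which gave 18193 genes. Values below 0 were set to 0, and log2(intensity + 16) was fitted with limma 3.58.1 in R 4.3.3 (1 mean for each of 16 groups, trended prior, Benjamini-Hochberg adjustment over all genes, 16 residual and 4.72 prior degrees of freedom, tested on simulated data).

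Genes named were the 15 largest rises and falls outside the range of the other arrays, in each list the members with the lowest p-values (at most 4), the 5 largest changes between 30 and 24 h, and a set of known genes. The comparison, members and lists were chosen with earlier results of these data known. The 20 alternatives changed the constant, the filter, the arrays that set the spread, the probe sets, the scaling, the prior, the replicate block, array weights, the grouping of 24 and 30 h and the arrays left out. A few genes are not reported here.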

Additional observations from a re-analysis of the deposited data

Results flagged for a closer look

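Between the earlier times 5 genes passed the test of 30 h over 24 h, which is also the test of whether 72 h differed by the same amount from each. Cyp7a1, the rate-limiting enzyme of bile acid synthesis, read 346 and 798.8 at 30 h, against 62.7 and 69.3 at 24 h (log2 2.73 ± 0.43, limma adjusted p = 0.0294). Its 72 h values of 183 and 210.4 lay between these groups, so the change of 72 h was 1.37 ± 0.43 against 24 h and -1.35 ± 0.43 against 30 h. Akr1c19, an aldo-keto reductase, read 365 and 388 at 30 h, against 69.4 and 95.3 at 24 h (log2 2.01 ± 0.28, limma adjusted p = 0.00698).

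Both clock genes among the 5 moved in opposite directions. Nr1d2, a repressor of the clock, rose by 1.37 ± 0.23 at 30 h (limma adjusted p = 0.043), and changed by 1.22 ± 0.23 at 72 h against 24 h and -0.15 ± 0.23 against 30 h. Cry1, another repressor of the clock, changed by -1.31 ± 0.23 at 30 h (limma adjusted p = 0.0499), and by -0.18 ± 0.23 at 72 h against 24 h and 1.13 ± 0.23 against 30 h. Ier3, an early response gene, changed by -1.47 ± 0.26 at 30 h (limma adjusted p = 0.0497), with 11.8 and 14.4 at 30 h, against 65.04 and 63.99 at 24 h. The labels do not give the hour of day, so time of day and time after the operation cannot be told apart in these genes. The count of 5 became 3 without either 72 h array, 81 without the first 24 h array, 2 without the second and 1 without the second 30 h array. No sample could be screened as an outlier of its group, since each group holds 2 arrays.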

How the results depend on the processing

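No called gene among those named turned its direction under any alternative except Tmsb10, at -0.0377 without ambiguous probe sets. Of the values of named genes under the alternatives 4090 kept their side of the threshold, 245 lost and 63 gained a call. For 72 h against 24 and 30 h, 540 genes were called, against 336 with the spread of adult arrays, 200 with the 6 arrays alone, 1004 with array weights and 246 to 504 when 1 array was left out. For 72 h against 24 h the counts were 539, 309, 157 and 271 to 477, with array weights within 1.5 times. For 72 h against 30 h they were 295, 119, 98, 686 with weights and 142 to 292. For 30 h against 24 h, 5 genes were called, 9 with the filter on low genes, 13 with a spread without 48 h, 10 with quantile normalisation, 9 after 75th percentile scaling, 2 without the prior trend, 2 with the replicate block, 25 with array weights and 1 to 81 without 1 array. With the adult spread and with the 6 arrays limma called 0, with 658 and 1090 genes at an unadjusted p under 0.05. The fits with fewer arrays had fewer degrees of freedom, and the cause of the other shifts was not tested. With the replicate block the counts were 523, 514, 270 and 2, and equal numbers do not pair the pools, since the correlations of replicate differences were 0.05 for 72 and 24 h, -0.06 for 72 and 30 h and -0.00 for 24 and 30 h. Intensities at or below 0 set the size of the largest changes: Cdk1 was called at every constant, with a log2 change between 3.63 and 6.64.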

Other observations

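Of the 519 raised genes 333 were in none of the lists, and the genes named here were chosen after their values were seen. Pclaf, a partner of Pcna, read 133 and 130.1 at 72 h, against 19.4 and 11.2 at 24 h and 30.3 and 29.6 at 30 h (log2 1.97 ± 0.21). Kpna2, an importin that carries proteins into the nucleus, read 1465 and 1854 at 72 h, against 376 and 509 at 24 h and 531 and 576 at 30 h (log2 1.71 ± 0.18). Spdl1, which recruits dynein to kinetochores, changed by 1.83 ± 0.24. These 3 were called in all 20 settings.

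Other single genes were chosen in the same way. Gsta2, a glutathione transferase, read 369.9 and 381 at 72 h, against 74.5 and 54.9 at 24 h and 58.3 and 55.7 at 30 h (log2 2.36 ± 0.32). Ptgr1, a reductase of prostaglandins, read 274 and 415 at 72 h, against 48.7 and 49.9 at 24 h and 76.4 and 67.4 at 30 h (log2 2.22 ± 0.22). Nqo1, a quinone reductase, read 149.8 and 187 at 72 h, against 76.2 and 41.0 at 24 h and 56.9 and 57.6 at 30 h (log2 1.33 ± 0.17). The 72 h arrays lay above all others in each. Cxcl13, a chemokine for B cells, read 616 and 442 at 72 h, against 57.5 and 138 at 24 h and 64.4 and 42.1 at 30 h (log2 2.66 ± 0.35). Ctss, a protease of antigen-presenting cells, changed by 1.20 ± 0.17, Itgb2, the beta chain of leukocyte integrins, by 1.22 ± 0.18, Cd44, a receptor for hyaluronan, by 1.31 ± 0.14 and Aif1, a marker of macrophages, by 1.40 ± 0.17. Among 9160 probe sets with no gene symbol 20 were raised and 1 was lowered.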
